A study of Mus musculus with 7 samples.

Results

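Peg3, Mest, Ndn, Nnat, Sgce, Impact and Snrpn are imprinted genes that are expressed from the copy inherited from the father. They were followed in mouse embryonic fibroblasts, connective tissue cells grown from embryos, as every probe set that the array's annotation assigns to any of the 7 genes, which gave 20 probe sets of the 22690 on the array. The array names 12393 genes by a probe set of their own, and these are 7 of them. Ndn had 8 probe sets, Peg3 had 3, and Mest, Nnat, Sgce and Impact had 1 each. Snrpn had 1 of its own, and 4 more were assigned jointly to Snurf and Snrpn, which share a transcript, so their values are not credited to either gene alone. The cells were p53-/- Dnmt1-/- fibroblasts (p53-Dnmt1-null below) and p53-/- fibroblasts (p53-null), so every cell lacked the tumour suppressor p53 and the comparison concerns Dnmt1. For each genotype there was an array of untreated cells, 1 at 24 h and 1 at 48 h of trichostatin A (TSA), an inhibitor of histone deacetylases, at a dose not stated in the labels. A further p53-Dnmt1-null array came 2 weeks past the removal of TSA. Each of these 7 conditions was 1 array and had no replicate, and neither the number of embryos nor separate cultures are named in the labels, so a genotype difference and a difference between cell lines cannot be told apart.

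Imprinted genes carry DNA methylation that was set on the egg's or the sperm's copy and is copied after each cell division by Dnmt1, the maintenance methyltransferase. For genes of this kind the maternal copy is the methylated one, at the promoter or at a control region nearby, and the paternal copy is transcribed. Many are strongly expressed in embryonic mesoderm, placenta or the developing brain and lower in adult tissue. The arrays sum RNA of both parental copies and say nothing of which copy was read.

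Signals are the authors' MAS5 intensities, which combine the probes of a probe set into 1 background-corrected value. Brightness depends on the probes, so values are compared between arrays and never between genes. Dnmt1 itself, by its brighter probe set, had 206.5, 74.0 and 109.5 on the p53-Dnmt1-null arrays at 0, 24 and 48 h and 123.2 after removal, against 695.6, 384.4 and 308.2 on the p53-null arrays. Array medians ran from 41.9 to 48.8, and the ratio of 5' to 3' signal of the Gapdh control, a sign of intact RNA, ran from 1.10 to 1.20. The 18S ribosomal RNA control was uneven. Its 3' end had 688.1, 2549.1 and 1292.1 on the p53-Dnmt1-null arrays at 0, 24 and 48 h and 93.6 after removal. On the p53-null arrays it had 194.0, 337.5 and 228.7. It was thus highest on the p53-Dnmt1-null array at 24 h and was higher in that genotype at every matched time. The part of this control in the genotype differences was not tested.

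**Figure D1:**
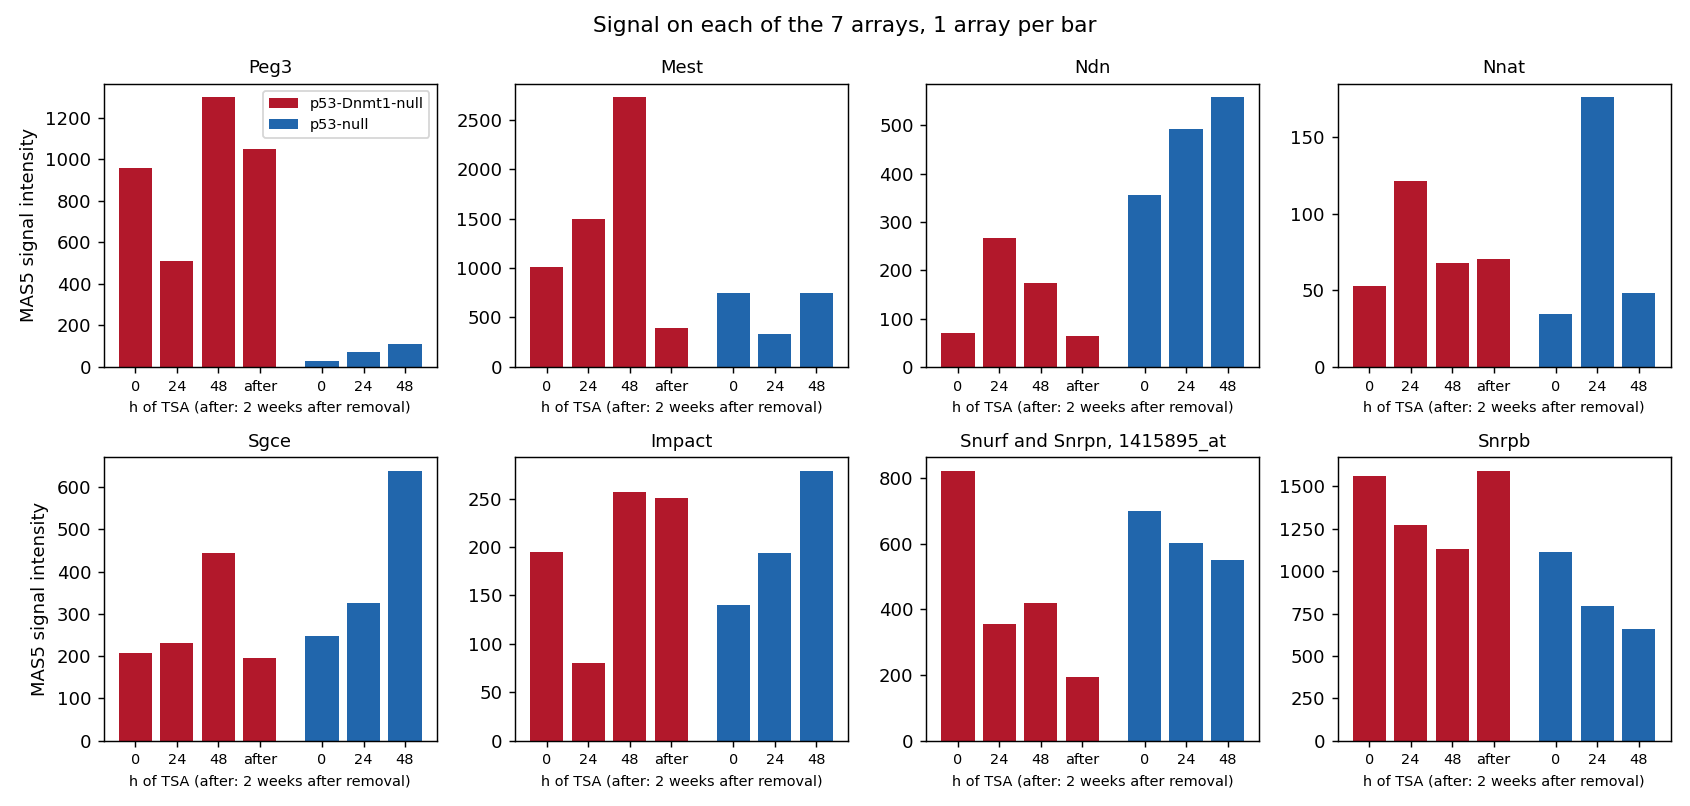
MAS5 signal intensity (y axis, from 0, a scale of its own in each panel) on each array, for the probe set that represents each gene, the brightest joint Snurf and Snrpn probe set, and the paralog Snrpb. Red bars are p53-Dnmt1-null and blue bars p53-null arrays, by hours of TSA. Peg3 stands at 508.3 or more on all red arrays and at 110.3 or less on all blue ones, and Ndn is ordered the other way.

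Peg3 encodes a large zinc finger protein that binds DNA. Its probe set 1433924_at had signals of 958.5, 508.3 and 1299.9 on the p53-Dnmt1-null arrays at 0, 24 and 48 h of TSA and 1051.6 after removal, against 26.9, 71.0 and 110.3 on the p53-null arrays. Every p53-Dnmt1-null array was above every p53-null array. On the scale of log2(signal + 11.4), used for all differences and fold changes here, the genotype difference was 3.58 ± 0.33 (SE, limma, 3 arrays per genotype, adjusted p = 9.83e-05), and at 0 h alone it was 25.3-fold. In RNA from a whole culture, fewer cells of a type and less RNA per cell cannot be told apart.

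The other Peg3 probe sets had the same direction. 1417355_at gave 504.5, 292.2, 645.9 and 2007.4 on the p53-Dnmt1-null arrays at 0, 24 and 48 h and after removal, against 29.8, 56.9 and 75.1 on the p53-null arrays. 1417356_at gave 198.1, 84.1, 381.9 and 317.5 on the p53-Dnmt1-null arrays, against 1.9, 2.0 and 3.2 on the p53-null arrays. All 3 probe sets were therefore lowest at 24 h among the p53-Dnmt1-null arrays, while among p53-null arrays all were lowest untreated and highest at 48 h. 1417356_at passed the filter only through p53-Dnmt1-null arrays, so the filter favoured a difference in this direction. The 3 probe sets parted after removal. 1417355_at alone was then far above its untreated value, at 3.91-fold, against 1.10-fold for 1433924_at and 1.57-fold for 1417356_at.

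The start of Peg3 lies back to back with that of Usp29, a ubiquitin protease gene of the same imprinted domain, and the promoter windows of both overlap by 263 bases in RefSeq (GRCm38.p6). The Peg3 window, from 250 bases before to 50 after the start at chr7:6730370-6730669 on the minus strand, is shown because the pair reads the same stretch in opposite directions. Capitals mark TGACGTCA, the palindromic site known for CREB and ATF factors, which was searched on both strands after the sequence was seen and is held by 1.79% of 32851 such windows.
Peg3: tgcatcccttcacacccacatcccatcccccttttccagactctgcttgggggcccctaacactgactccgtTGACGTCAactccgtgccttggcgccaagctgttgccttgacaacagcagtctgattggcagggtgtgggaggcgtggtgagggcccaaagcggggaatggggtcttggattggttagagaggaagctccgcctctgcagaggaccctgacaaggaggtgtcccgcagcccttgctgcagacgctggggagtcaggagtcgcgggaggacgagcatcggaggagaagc
The window holds 13 CG dinucleotides, and 37.9% of all windows hold as many or more. Usp29 signals were 21.1, 3.5, 3.9 and 12.3 on the p53-Dnmt1-null arrays at 0, 24 and 48 h and after removal, and 4.2, 4.0 and 2.2 on the p53-null arrays, below the filter of 45.6 on every array.

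Mest encodes an enzyme-like membrane protein of the endoplasmic reticulum that is abundant in embryonic mesoderm. Its signals were 1012.4, 1495.5 and 2727.3 on the p53-Dnmt1-null arrays at 0, 24 and 48 h of TSA and 395.6 after removal, against 748.0, 330.0 and 742.5 on the p53-null arrays. The 3 p53-Dnmt1-null arrays at matched times were above all p53-null arrays, but the after-removal array lay among the p53-null values. The genotype difference was 1.48 ± 0.29 (SE, limma, adjusted p = 0.00461). It was uneven over time, at 1.35-fold untreated, 4.41-fold at 24 h and 3.63-fold at 48 h.

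Ndn, necdin, belongs to the MAGE family and is known as a growth suppressor of neurons that have stopped dividing. It had the reverse order. Probe set 1435383_x_at had signals of 69.6, 266.0 and 173.0 on the p53-Dnmt1-null arrays at 0, 24 and 48 h and 63.2 after removal, against 355.6, 491.9 and 558.7 on the p53-null arrays, with no overlap of the genotypes. The genotype difference was -1.56 ± 0.25 (SE, limma, adjusted p = 0.00184). At 0 h the p53-Dnmt1-null value was 0.221 times that of p53-null cells, and at 24 h of TSA 0.551 times.

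The Ndn probe sets split into 5 that followed this course and 3 dim ones. In a fit that kept every probe set as a feature of its own, the 5 gave genotype differences of -1.52 to -1.89. The 3 others, 1438939_x_at, 1438978_x_at and 1456575_at, had signals of 0.6 to 30.2 over all arrays, did not pass the filter and were not lower on the p53-Dnmt1-null array at any matched time. Probe sets with _x in their names hold probes that can match other transcripts.

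**Figure D2:**
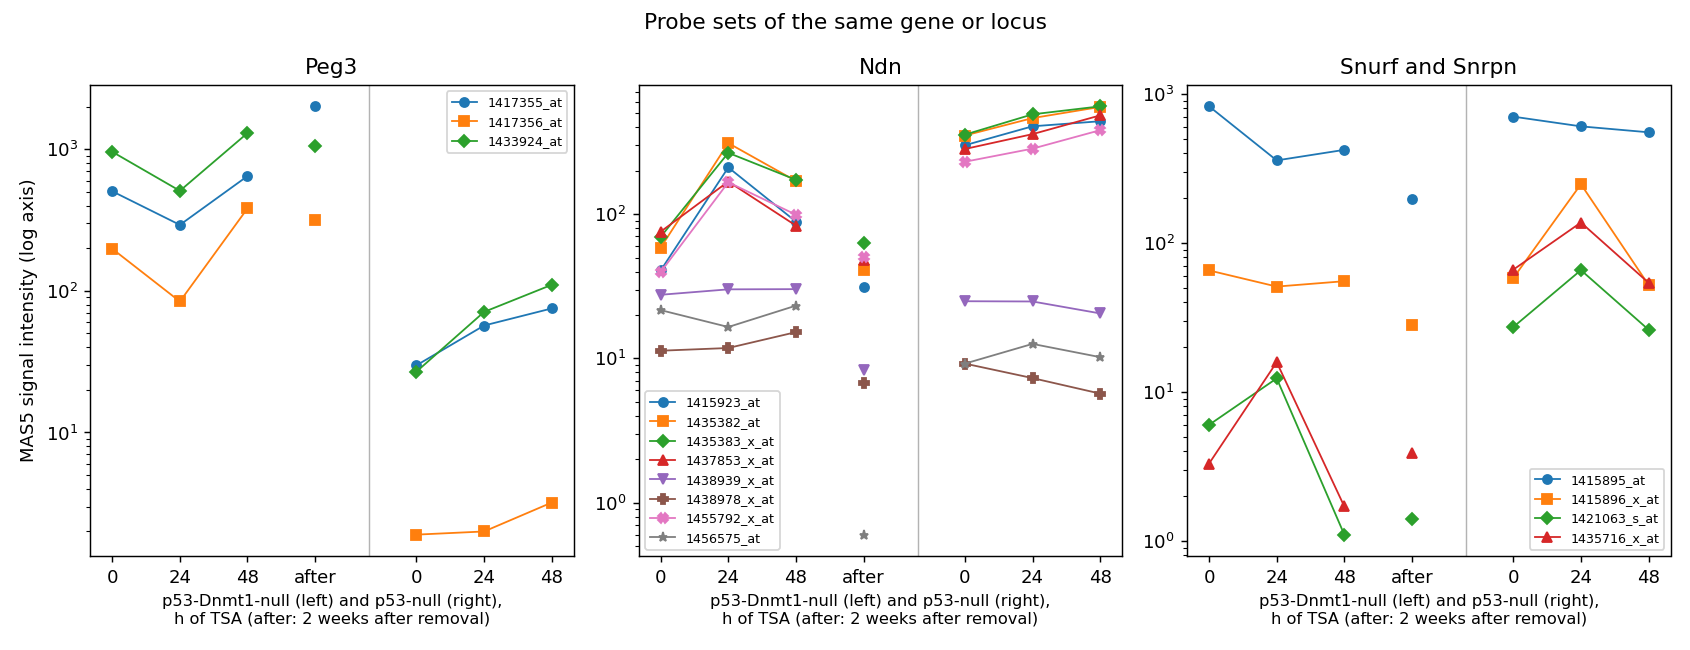
MAS5 signal intensity (log axis) of all probe sets of Peg3, Ndn and the joint Snurf and Snrpn locus, with p53-Dnmt1-null arrays to the left and p53-null arrays to the right in each panel. Each point is 1 array, and lines join the 0, 24 and 48 h arrays of a genotype. All 3 Peg3 probe sets are lowest at 24 h among the p53-Dnmt1-null arrays, 5 of 8 Ndn probe sets run together, and the 4 Snurf and Snrpn probe sets do not share a course.

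Snrpn encodes SmN, a spliceosome protein that is nearly identical to SmB from Snrpb, and Snurf is read from the upstream part of the same transcript. The probe set assigned to Snrpn alone, 1432096_at, had signals of 1.8 to 4.4 on all 7 arrays, so no level was read from it. The brightest joint probe set, 1415895_at, had 822.8, 356.9 and 420.1 on the p53-Dnmt1-null arrays at 0, 24 and 48 h and 195.1 after removal, against 701.8, 603.9 and 551.1 on the p53-null arrays. It was highest untreated in both genotypes, and its genotype difference of -0.30 ± 0.20 missed the threshold (SE, limma, adjusted p = 0.271).

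The other joint probe sets differed from it and from each other. 1435716_x_at had 3.3, 15.8, 1.7 and 3.9 on the p53-Dnmt1-null arrays at 0, 24 and 48 h and after removal, against 66.0, 136.7 and 53.9 on the p53-null arrays. 1421063_s_at had 6.0, 12.3, 1.1 and 1.4 on the p53-Dnmt1-null arrays, against 27.2, 65.5 and 26.1 on the p53-null arrays. Both were higher on every p53-null array, with differences of -2.39 ± 0.26 and -1.48 ± 0.33 (SE, limma, adjusted p = 0.000245 and 0.00816). Both passed the filter only through p53-null arrays, however, so the filter favoured a difference in this direction. 1415896_x_at had 65.2, 50.8, 55.2 and 28.1 on the p53-Dnmt1-null arrays and 58.0, 247.1 and 52.2 on the p53-null arrays, so it stood out on the p53-null 24 h array alone. Where on the transcript each probe set lies was not looked up here.

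Snrpb, the paralog, was higher in p53-Dnmt1-null cells, with 1559.0, 1273.1 and 1131.7 at 0, 24 and 48 h and 1591.8 after removal, against 1114.1, 792.3 and 656.8 on the p53-null arrays. The difference was 0.64 ± 0.13 (SE, limma, adjusted p = 0.00526). Whether probes for SmN also bind Snrpb RNA was not tested.

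The promoter windows of Ndn, of Snurf with Snrpn, and of Nnat are shown together because they share the letters CGCATGCG, in capitals below. This palindrome is the middle of the site known for NRF1, a factor whose binding is blocked by DNA methylation. It was searched for on both strands after the sequences were seen, and 1.87% of the 32851 RefSeq windows hold it. The Ndn window is chr7:62348027-62348326 on the plus strand, the Snurf and Snrpn window chr7:60005150-60005449 on the minus strand and the Nnat window chr2:157559828-157560127 on the plus strand (GRCm38.p6).
Ndn: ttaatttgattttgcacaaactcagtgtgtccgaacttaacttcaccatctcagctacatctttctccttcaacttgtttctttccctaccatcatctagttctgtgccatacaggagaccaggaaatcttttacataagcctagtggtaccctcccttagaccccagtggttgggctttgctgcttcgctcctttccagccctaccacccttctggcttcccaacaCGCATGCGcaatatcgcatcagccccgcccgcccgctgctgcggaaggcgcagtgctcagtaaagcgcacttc
Snurf: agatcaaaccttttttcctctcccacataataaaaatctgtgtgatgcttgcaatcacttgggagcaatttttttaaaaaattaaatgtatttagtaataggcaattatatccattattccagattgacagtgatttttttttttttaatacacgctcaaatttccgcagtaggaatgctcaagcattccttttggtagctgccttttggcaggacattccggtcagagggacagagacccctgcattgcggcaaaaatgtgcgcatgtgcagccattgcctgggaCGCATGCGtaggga
Nnat: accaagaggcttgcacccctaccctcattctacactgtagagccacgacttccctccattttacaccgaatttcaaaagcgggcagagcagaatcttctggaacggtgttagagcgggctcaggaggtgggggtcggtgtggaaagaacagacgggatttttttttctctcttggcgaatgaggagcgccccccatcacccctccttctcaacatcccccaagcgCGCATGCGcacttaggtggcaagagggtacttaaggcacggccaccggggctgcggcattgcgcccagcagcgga
The first letter of the palindrome lies at -23 from the start in Ndn, at -25 in Nnat and at 36 in the Snurf window. The windows of upstream Snrpn starts, not shown, hold it too, at -63, -78 and -71. Windows were listed for 5 of the 7 genes, and those of Peg3 and Mest do not hold it. TGCCGC, the hexamer that ZFP57 reads in methylated form, is in the windows of Nnat and Snurf and of the downstream starts of Mest, and in 11.6% of all windows. A match of letters is not a measured binding site.

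Nnat, neuronatin, is a small membrane protein of the endoplasmic reticulum that affects calcium stores. Its signals were 52.7, 121.4 and 68.0 on the p53-Dnmt1-null arrays at 0, 24 and 48 h and 70.3 after removal, against 34.7, 176.4 and 48.6 on the p53-null arrays. Both genotypes were highest at 24 h, and their values overlapped. The genotype difference was 0.13 ± 0.24 (SE, limma, adjusted p = 0.704).

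Sgce encodes epsilon-sarcoglycan, a membrane partner of dystrophin-associated proteins. Its signals were 206.3, 232.1 and 444.5 on the p53-Dnmt1-null arrays at 0, 24 and 48 h and 196.6 after removal, against 248.0, 325.5 and 638.6 on the p53-null arrays. At each matched time the p53-Dnmt1-null value was the lower, though the genotypes overlapped across times. The difference of -0.41 ± 0.17 did not pass (SE, limma, adjusted p = 0.0844).

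Impact restrains Gcn2, the kinase that answers amino acid shortage, by competing for its activator Gcn1. Its signals were 195.0, 80.7 and 256.4 on the p53-Dnmt1-null arrays at 0, 24 and 48 h and 250.6 after removal, against 140.4, 194.1 and 278.7 on the p53-null arrays. Apart from the low p53-Dnmt1-null 24 h array, the genotypes overlapped. The difference was -0.28 ± 0.29 (SE, limma, adjusted p = 0.471). That low value falls on the array with the highest 18S control. The lowest Peg3 values of that genotype fall there too, as do the highest values of its bright Ndn probe sets. The part of that array in these values was not tested.

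Over the genotype comparison, 6 of the 7 genes had a probe set that passed the filter. Of these 6, 2 were called higher in p53-Dnmt1-null cells (Peg3 and Mest), where 19.4% of all 9390 features were, and 1 was called lower (Ndn), where also 19.4% were. The remaining 3, Nnat, Sgce and Impact, did not pass. The median difference of the 6 was -0.08, beside 0.04 for all features. With every probe set as a feature, 16 of the 20 passed the filter, and 4 of them were called higher (background 17.6%), 7 lower (background 19.3%) and 5 neither. Of these, 1 of the 4 (1417356_at) and 2 of the 7 (1421063_s_at and 1435716_x_at) passed the filter only through the genotype in which they were high. Without them 3 were higher, 5 lower and 5 neither. The 4 called higher were the Peg3 and Mest probe sets, and the 7 called lower were those of Ndn that passed and 2 of the Snurf and Snrpn locus. Probe sets of 1 gene are not independent of each other.

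**Figure D3:**
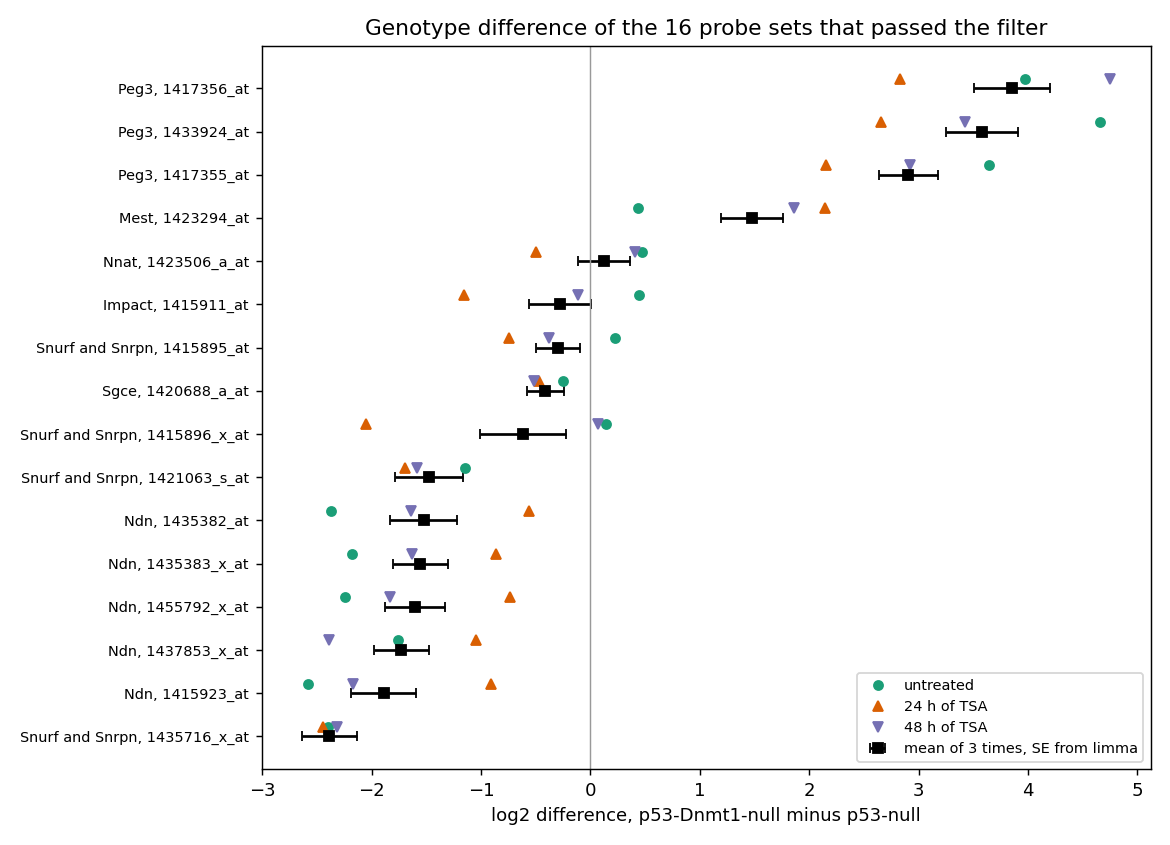
Genotype difference on the log2 scale (x axis, p53-Dnmt1-null minus p53-null) of the 16 probe sets that passed the filter. Black squares are the mean over 3 times with the SE from limma, and coloured symbols are the single pairs of arrays. All 3 Peg3 probe sets lie right of 0 and the 5 Ndn probe sets left of 0 at every time, while Nnat, Impact, 1415895_at and 1415896_x_at change side with time.

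Markers of other cell types moved with the genotype, where 19.4% of all features were called in each direction. Of 10 mesothelial and epithelial markers 9 passed the filter, 7 of them only through p53-Dnmt1-null arrays, so that the filter favoured their direction. The remaining 2, Krt8 and Krt19, were called higher in p53-Dnmt1-null cells. The summed signal of the list was 10413.0 to 17378.9 on p53-Dnmt1-null arrays, against 152.3 to 423.6 on p53-null arrays. Of 10 fibroblast markers 8 were called lower, 1 of which (Postn) passed the filter only through p53-null arrays, with sums of 8049.4 to 14003.3 on p53-Dnmt1-null arrays against 27111.0 to 34370.6 on p53-null arrays. Vim and Fn1 did not pass, and Postn was 2.2 to 16.8 on p53-Dnmt1-null arrays. Of 8 muscle markers 5 passed the filter, all only through p53-Dnmt1-null arrays, so no direction is read from their calls, with sums of 230.2 to 1270.9 on p53-Dnmt1-null arrays against 83.0 to 117.3 on p53-null arrays. No marker was listed at 0 throughout a genotype, though Wt1, which marks mesothelium, was 427.6 to 650.4 on the p53-Dnmt1-null arrays and 0.9 to 5.4 on the p53-null arrays. The part of these markers in the differences of Peg3, Mest and Ndn was not tested. Of the 2 adipocyte markers that passed the filter, 1 (Fabp4) did so only through p53-null arrays, and the other was called lower, with sums of 41.8 to 77.9 on p53-Dnmt1-null arrays against 221.0 to 252.5 on p53-null arrays.

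TSA blocks the enzymes that take acetyl groups off histones. In p53-Dnmt1-null cells Ndn was the member at least 2-fold above its untreated value at both times, at 3.43-fold after 24 h and 2.28-fold after 48 h, where 1.87% of all features were. The 4 other bright Ndn probe sets were all above untreated at both times, from 1.09-fold to 4.60-fold, and 2 of them, 1435382_at and 1455792_x_at, met the 2-fold rule at both. The limma difference with both times pooled was 1.48 ± 0.34 (SE, unadjusted p = 0.00278, adjusted p = 0.415). Mest was 1.47-fold and 2.67-fold above untreated, Nnat 2.07-fold and 1.24-fold, and Sgce 1.12-fold and 2.09-fold, at 24 h and 48 h in each case. Peg3 was at 0.536 and 1.35 times untreated and Impact at 0.446 and 1.30 times. The joint probe set 1415895_at was below untreated at both times, at 0.442 and 0.517 times.

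In p53-null cells Peg3 was the member at least 2-fold above untreated at both times by its representing probe set 1433924_at, at 2.15-fold and 3.18-fold, where 1.54% of all features were. The other 2 Peg3 probe sets did not meet the rule: 1417355_at was at 1.66-fold after 24 h and 2.10-fold after 48 h. Untreated p53-Dnmt1-null cells, at 958.5, were above the 110.3 that p53-null cells had at 48 h. The dimmest Peg3 probe set, 1417356_at, was at 1.01-fold and 1.10-fold, with signals near the floor of the array. Nnat was 4.07-fold and 1.30-fold above untreated, Sgce 1.30-fold and 2.51-fold, Impact 1.35-fold and 1.91-fold, and Ndn 1.37-fold and 1.55-fold. Mest was at 0.450 times untreated after 24 h and 0.993 times after 48 h.

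**Figure D4:**
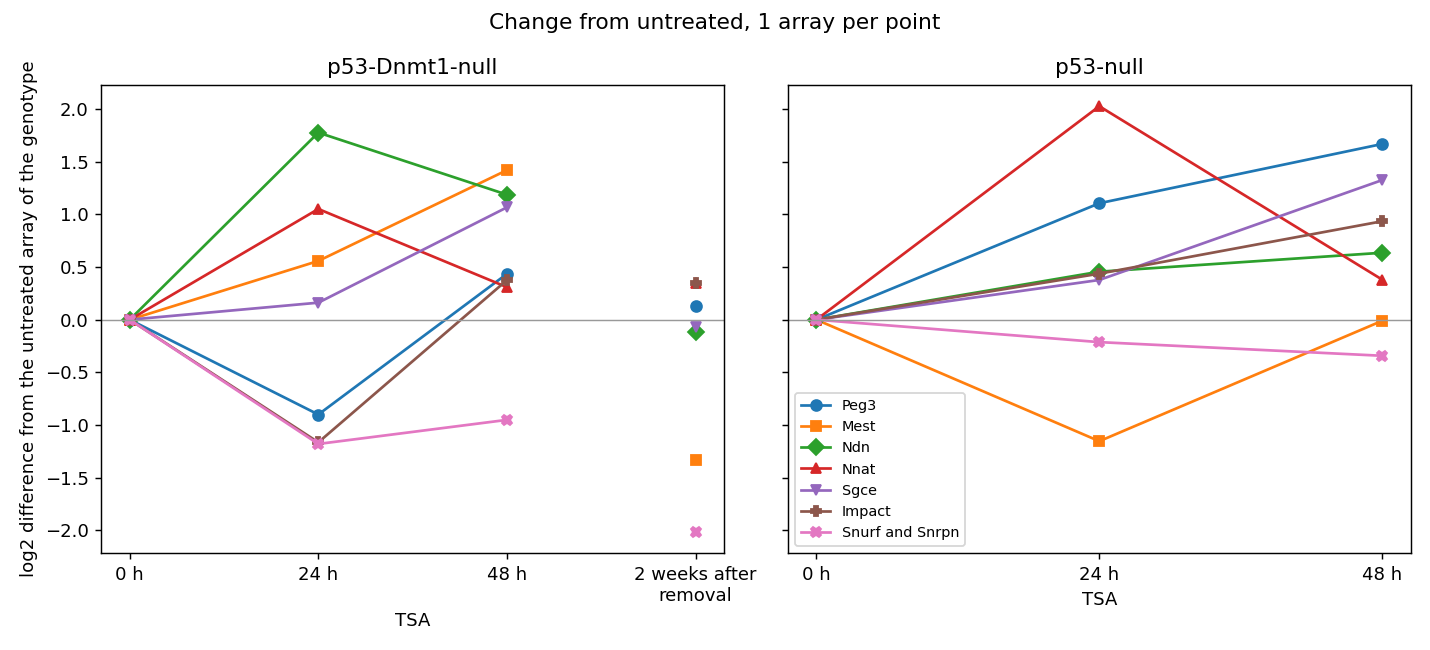
Difference from the untreated array of the same genotype (y axis, log2 scale) against TSA time, p53-Dnmt1-null left and p53-null right, 1 array per point. Nnat peaks at 24 h in both panels and Sgce at 48 h, while Mest, Peg3 and Impact lie on opposite sides of 0 between the panels at 24 h.

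No member passed limma for TSA in either genotype, where 0 of 9390 features did, with 736 features at an unadjusted p under 0.05 on the p53-Dnmt1-null arrays and 799 on the p53-null arrays. The difference between the TSA changes, p53-Dnmt1-null minus p53-null, was 1.57 ± 0.72 for Mest and -1.62 ± 0.75 for Peg3 (SE, limma, unadjusted p = 0.0605 and 0.0649, adjusted p = 0.994 for both). No feature passed this test, and 291 had an unadjusted p under 0.05. Averaged over genotypes, TSA called none of the members and 3 features higher, which is 0.0319% of those tested. The average was 1.01 ± 0.27 for Ndn, 0.94 ± 0.43 for Nnat and 0.73 ± 0.33 for Sgce (SE, limma, adjusted p = 0.18, 0.354 and 0.346).

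Which time was used changed the averaged result. Without the 24 h arrays 3 of the 6 members tested were called higher, where 342 of the 9390 features were called. The members were Sgce at 1.20, Peg3 at 1.05 and Ndn at 0.91 (limma, adjusted p = 0.00928, 0.0381 and 0.0416). At 48 h Peg3 was 1.35-fold above untreated in p53-Dnmt1-null cells and 3.18-fold in p53-null cells. Without the 48 h arrays Nnat was called, at 1.54 (limma, adjusted p = 0.0318), where 142 features were called. Both fits had fewer residual degrees of freedom than the 3 of the full averaged model. In them a change between 24 h and 48 h no longer counts as error.

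The neuronal marker list also peaked at 24 h. Its summed signal was 163.2, 442.8 and 215.1 on the p53-Dnmt1-null arrays at 0, 24 and 48 h and 232.8 after removal, and 341.6, 1535.1 and 1249.9 on the p53-null arrays, mostly from Stmn2 in the p53-null sums. Of the 10 markers 3 passed the filter, and none of the others exceeded it on any array. The part of this list in the 24 h values of Nnat and Ndn was not tested.

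The after-removal array was set against untreated p53-Dnmt1-null cells. Mest was the member at least 2-fold below untreated, with 395.6 after removal and 1012.4 untreated, or 0.398 times, and 9.67% of all features were below by as much. The joint probe set 1415895_at was at 195.1 and 822.8, or 0.247 times (limma difference -2.01 ± 0.33, SE, adjusted p = 0.117). The Mest difference was -1.33 ± 0.58 (SE, limma, adjusted p = 0.286). By their representing probe sets none of the 7 genes was at least 2-fold above untreated, where 4.65% of features were, and Peg3 reached that fold by 1417355_at alone. Ndn after removal was at 0.921 times and Sgce at 0.955 times untreated, so this array, at 63.2 and 196.6, was below the 48 h values of 173.0 and 444.5. Limma called 1 feature and no member here, with both arrays assumed to vary like the TSA pairs.

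Neighbours in the imprinted domains were mostly dim or lower. Of 27 listed neighbours 22 had a probe set, and 7 passed the filter. Of the 7, 0 were called higher and 4 lower by genotype, where 19.4% of all features were called in each direction. The median was -0.63 beside 0.04 for all features. Osbpl1a, a lipid-binding protein gene beside Impact, had 50.7, 42.5 and 47.3 on the p53-Dnmt1-null arrays at 0, 24 and 48 h and 47.7 after removal, against 200.2, 174.7 and 289.2 on the p53-null arrays. Its difference was -1.97 ± 0.20 (SE, limma, adjusted p = 0.000159), while Impact did not pass. Pon3 and Casd1, from the region of Sgce, were called lower, with differences of -0.72 and -0.63. Ube3a, a ubiquitin ligase gene of the domain of Ndn and Snrpn, was also called lower over the matched times, with -0.71. Ube3a had 126.9, 81.2 and 138.7 on the p53-Dnmt1-null arrays at 0, 24 and 48 h, against 137.3, 198.3 and 260.2 on the p53-null arrays. After removal it had 357.3, above every p53-null array. Blcap, whose intron holds Nnat, differed by -0.52 (limma, adjusted p = 0.163), and Copg2, beside Mest, by 0.02, and neither passed. The other paternally expressed genes of these domains with a probe set, Magel2, Mkrn3, Peg12, Peg10 and Usp29, were below the filter on every array.

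Protein partners gave no common direction. Of 20 listed partners and paralogs 15 had a probe set and 11 passed the filter. Of the 11, 3 were called higher (Snrpg, Snrpb and Atp2a2) and 2 lower (Sspn and Maged1). Over all features the shares were 19.4% higher and 19.4% lower, so the calls are not read as a trait of partners. Sspn, sarcospan of the complex that holds sarcoglycans, had 35.2, 42.6 and 49.6 on the p53-Dnmt1-null arrays at 0, 24 and 48 h and 35.3 after removal, against 241.5, 208.2 and 375.0 on the p53-null arrays, a difference of -2.38 ± 0.20 (SE, limma, adjusted p = 5.38e-05). Sgcb, beta-sarcoglycan, differed by -0.32 and Dag1, dystroglycan, by 0.14, and neither passed. Maged1, a MAGE relative of necdin, had 323.2, 376.7 and 490.4 on the p53-Dnmt1-null arrays and 307.8 after removal, against 937.4, 933.9 and 1130.5 on the p53-null arrays, a difference of -1.32 ± 0.15 (SE, limma, adjusted p = 0.000295). It thus lay on the same side as Ndn. Snrpg, a core protein of the particle that SmN and SmB join, was higher by 1.07 ± 0.11 (SE, limma, adjusted p = 0.000143).

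Other paternally expressed genes also went both ways. Of 7 further paternally expressed genes that passed the filter, 3 were called higher, 3 lower and 1 neither, with Sfmbt2 at 3.23, Igf2 at -3.77, Plagl1 at -3.12 and Dlk1 at -1.92. The call of Sfmbt2 was favoured by the filter, which it passed only through p53-Dnmt1-null arrays, and without it 2 were higher and 3 lower. Sfmbt2, a polycomb-related gene, had 428.1, 191.0 and 312.8 on the p53-Dnmt1-null arrays at 0, 24 and 48 h and 568.4 after removal, against 15.9, 39.1 and 13.7 on the p53-null arrays. Of 16 genes listed as maternally expressed in some tissue 1 was called higher, 10 lower and 5 neither, with a median of -0.67. Whether each is imprinted in these cells was not tested. Of all features 19.4% were called higher and 19.4% lower. The gene called higher (Gatm) and 1 of those called lower (Rian) passed the filter through 1 genotype alone. Without these, the 9 calls left were all lower. Casd1, Pon3 and Ube3a are among them and were also counted as domain neighbours. Grb10 at -3.35, Cdkn1c at -3.12, Rian at -2.41 and Meg3 at -2.35 were the furthest from 0. Among genes that maintain imprints, Uhrf1, which guides Dnmt1 to replicated DNA, and Dnmt3b were called higher, with differences of 1.75 and 1.15. Dnmt1, the gene by which the genotypes differ, was called lower, with -1.77, so that call is no finding of its own. Dnmt3b and Zfp57 passed the filter only through p53-Dnmt1-null arrays. Zfp57, a guardian of imprints, had 23.8, 12.7 and 49.9 on the p53-Dnmt1-null arrays and 27.4 after removal, against 5.7, 5.0 and 9.9 on the p53-null arrays, dim throughout (limma, adjusted p = 0.0521). Under TSA limma called no gene of these lists, in either genotype or averaged.

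The courses most like each member over the 7 arrays were sought among 8292 other named genes, by Pearson's r of the log2 values. These arrays share a genotype or a treatment, so the values describe likeness and no more. Peg3 was most like Gtf2b (r = 0.995), a general transcription factor, and Med31 (r = 0.987). Ndn was most like Tmem159 (r = 0.994) and Trim13 (r = 0.994), and Mest like Vgll4 (r = 0.967) and Mrrf (r = 0.965). Sgce was most like Atp7a (r = 0.977) and Zkscan1 (r = 0.971), and Impact like Tug1 (r = 0.984) and Atf2 (r = 0.981). Nnat had the least close match, Gsta4 (r = 0.920) and Tspan13 (r = 0.914). Likeness of course was not likeness of size: Gtf2b had 405.6, 353.9 and 420.1 on the p53-Dnmt1-null arrays at 0, 24 and 48 h, against 184.0, 216.2 and 225.5 on the p53-null arrays, far less apart than Peg3.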

How the data were processed

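TriZol was used to purify the RNA and the standard Affymetrix method to label it, per the labels' protocols. The deposited values are linear MAS5 signal intensities of 22690 probe sets on 7 arrays, per the submitters' processing notes, with version, scaling target and detection calls not given in the sources used here. Probe sets were named through the platform annotation (20393 with 1 symbol, 691 with several, 1606 not listed), and 20364 were matched to current symbols through Entrez identifiers. A gene was represented by its probe set of highest mean log2 value, and 64 controls were left out. Analysis used log2(signal + 11.4), the offset being the pooled 25th percentile, and kept features above the pooled median of 45.6 on at least 1 array, 9390 in all (14012 with every probe set kept).

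Differences were tested by limma 3.58.1 (R 4.3.3), its prior variance following intensity, with p-values adjusted after Benjamini and Hochberg over all features at 0.05, and the test was tried on simulated data. Genotypes were compared over 6 arrays with time as a factor (2 residual degrees of freedom). TSA and after-removal comparisons used all 7 arrays with 24 h and 48 h pooled (2 residual degrees of freedom), and the averaged TSA model had 3. Spread is between single arrays, which may be technical. Pairs of arrays were described by a 2-fold rule. The members, lists and rules were chosen with earlier results of these data known. Genes outside the members were named if they were listed domain neighbours or partners, among the 4 largest genotype differences of another list, or the 2 most like a member. Vim, Fn1, Wt1, Krt19, Gatm and 18S RNA fall outside this rule and were named after their values were seen. Some neighbours are also on the parental lists. The number of arrays limits the precision.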

Additional observations from a re-analysis of the deposited data

How the results depend on the processing

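The genotype calls of Peg3, Mest and Ndn held under the 9 alternatives run: an offset at the pooled median or of 1, no filter, every probe set, quantile normalization, no intensity trend, and leaving out the untreated, 24 h or 48 h pair. Their differences ranged from 3.04 to 4.05, 1.15 to 2.00 and -1.90 to -1.24, with highest adjusted p of 0.00195, 0.0236 and 0.00988 by limma. Without the 48 h pair 2246 features were called by genotype instead of 3643. Over all comparisons 394 of 410 single values of the members kept direction and side of the threshold, 4 passed it newly and 12 changed sign, none of them called in either fit. By genotype the sign changed for Nnat without the untreated pair (-0.048) and without 48 h (-0.012), and for Impact (0.16) and 1415896_x_at (0.10) without 24 h. For TSA in p53-Dnmt1-null cells 1421063_s_at turned to 0.011 with the median offset and 0.0185 with quantile normalization, and the difference between genotypes in TSA change turned to -0.13 for 1435716_x_at with the median offset. For averaged TSA without 24 h, 1415896_x_at, 1421063_s_at and 1435716_x_at turned to -0.16, -0.26 and -0.21, and without 48 h Mest and Impact to -0.30 and -0.36. The cause was not tested.

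Features called for TSA in p53-Dnmt1-null cells were 1 instead of 0 with the median offset or no trend. After removal they were 0 instead of 1 with no filter, quantile normalization or no trend, and 2 with every probe set. Averaged TSA called 0 instead of 3 with no filter or no trend, but 342 features and 3 members without 24 h, and 142 features and 1 member without 48 h. The fits of TSA per genotype, of its difference between genotypes and of the after-removal array left no residual degrees of freedom without the 24 h or the 48 h arrays and were not run.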
